A study of Mus musculus with 2 samples.

Results

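The 8 genes described here encode complement component C1q, its neighbours in the complement cascade and the receptors of complement fragments: C1qa, C1qb, C1qc, C3, C3ar1, C5ar1, Cfp and Cfb. They were found by symbol among the 20034 genes counted in single induced macrophages (iMac), and all 8 had a row. The series title describes these mouse cells as macrophages obtained from fibroblasts with c-Myc and no further factor. A cDNA library and an oligo library are listed, both of wild type iMac detached with 5 mM EDTA and captured on the DNBelab C4 droplet system. The names of the barcodes in the 1 count matrix analysed end in N1 to N9, a suffix that the labels do not explain and that was not used, and show no library, so the matrix counts as 1 sample without replicates, and no test between samples was possible. Every interval in the text is a 95% interval that covers counting error only, and differences between groups of cells are descriptions of this 1 sample.

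C1q is the recognition molecule of the classical complement pathway. Its A, B and C chains, encoded by C1qa, C1qb and C1qc, assemble into 1 collagen-like molecule that binds antibody complexes, dying cells and some pathogens, and then acts through the proteases C1r and C1s. Most complement proteins of the blood are made by the liver, whereas C1q is made largely by macrophages and related myeloid cells, and it is a common marker of tissue macrophages. C3 is the component on which all activation routes converge. Factor B (Cfb) and properdin (Cfp) build and stabilise the convertase of the alternative pathway. C3ar1 and C5ar1 are the receptors of the small fragments C3a and C5a that are released during activation.

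The 3 C1q genes lie side by side on the minus strand of chromosome 4 (GRCm38, GENCODE M21). C1qb is at chr4:136880129-136886187, C1qc at chr4:136889804-136893065 and C1qa at chr4:136895917-136898803. Together they span 18.7 kb, with gaps of 3.62 kb between C1qb and C1qc and 2.85 kb between C1qc and C1qa. The 250 bases before the RefSeq start are shown for C1qb and C1qc, since these chains are counted together in the cells below. RefSeq windows (GRCm38.p6) were matched for 6 of the 8 genes, which do not include C1qa and Cfb. The C1qb window is chr4:136886201-136886450 and the C1qc window is chr4:136892915-136893164, both read 5′ to 3′ on the minus strand. Capitals mark the PU.1 core (GAGGAA, or TTCCTC on the other strand) and the MAF core (TGCTGA, or TCAGCA on the other strand). PU.1, the product of Spi1, and the MAF factors are known regulators of macrophage genes.
C1qb: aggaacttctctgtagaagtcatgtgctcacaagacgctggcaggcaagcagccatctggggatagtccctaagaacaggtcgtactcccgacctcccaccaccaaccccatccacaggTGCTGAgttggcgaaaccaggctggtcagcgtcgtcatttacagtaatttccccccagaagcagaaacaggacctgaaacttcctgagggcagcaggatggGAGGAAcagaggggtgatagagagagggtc
C1qc: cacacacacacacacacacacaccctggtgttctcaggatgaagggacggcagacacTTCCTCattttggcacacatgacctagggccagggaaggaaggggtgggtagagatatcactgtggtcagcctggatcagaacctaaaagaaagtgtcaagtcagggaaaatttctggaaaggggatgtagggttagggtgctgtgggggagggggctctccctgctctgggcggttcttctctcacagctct
In C1qb the PU.1 core starts at position -30 and the MAF core at position -131, counted back from the start, and in C1qc the PU.1 core starts at position -193. The marked matches do not overlap. Of the windows of 27025 genes, 25.9% hold the PU.1 core and 18.0% hold the MAF core, so a match in 1 window is common. The MAF core was also found before the RefSeq start of C3 (position -182), C3ar1 (-144) and C5ar1 (-17), and neither motif before that of Cfp. RefSeq and GENCODE starts differ, so the windows of C1qc, C3ar1 and C5ar1 reach into the GENCODE spans of these genes. The C5ar1 match lies within its GENCODE span. The repeat bound by interferon regulatory factors, searched on both strands, is in 3.46% of all windows and in none of these 6.

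After 86 of 6837 barcodes were left out for having under 500 genes or over 15% mitochondrial counts, 6751 cells remained with 160363508 counts in all. A cell held 1001 to 192369 counts with a median of 17178. The levels went with the labelled identity: all 18 macrophage markers reached 10 CPM (counts per 1000000 counts, summed over cells), led by Tyrobp at 5699.7 CPM. Of all 20034 genes, 33.2% reached 10 CPM. The macrophage list summed to 13737 CPM. Of 11 fibroblast markers 5 had a row and none reached 10 CPM, their summed level being 2.99 CPM. The hepatocyte list summed to 0.0437 CPM over 3 genes. Monocyte markers were present too: of 7, 6 had a row and 4 reached 10 CPM, with a summed level of 120 CPM. Of 11 neutrophil markers 7 had a row and 1 reached 10 CPM. Among monocyte and neutrophil markers, F13a1 (40.6 CPM) and Prtn3 (96.3 CPM) were the highest.

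The 3 C1q chains were the most abundant of the 8 genes. Summed, they made up 964 CPM (959.7 to 969.3, from 154670 counts). C1qc was counted at 382 CPM (379 to 385), C1qa at 322 CPM (319 to 325) and C1qb at 260.4 CPM (258 to 263). Divided by exon length, the order was C1qa at 309.7, C1qb at 239 and C1qc at 198 CPM per kb, because the annotated exons of C1qc are the longest of the 3. Which chain is highest therefore depends on the scale, and no order of the chains is read here. The nearest genes with a row on either side were low in the same cells. Ephb2, a receptor tyrosine kinase gene beyond C1qb, had 8 counts (0.0499 CPM), and Zbtb40, a zinc finger gene beyond C1qa, was at 2.60 CPM.

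Of the receptors, C3ar1 (chr6:122847138-122856161) was at 142 CPM (139.97 to 144), or 32.9 CPM per kb of exon. C5ar1 (chr7:16246743-16259540) was at 23.9 CPM (23.1 to 24.6), or 9.29 CPM per kb. Cfp, the gene of properdin on the X chromosome (chrX:20925454-20931555), was at 74.7 CPM (73.3 to 76.0), or 43.0 CPM per kb. Properdin is known as the complement regulator that white blood cells make themselves. The remaining pair was scarce: C3 (chr17:57203970-57228136) was at 3.25 CPM (2.98 to 3.54), or 0.632 CPM per kb, and Cfb (chr17:34856374-34862518) was at 0.698 CPM (0.575 to 0.840), or 0.247 CPM per kb. Per kb of exon the levels below those of the chains followed the order Cfp, C3ar1, C5ar1, C3 and Cfb, and no neighbours in it had overlapping counting intervals. By CPM C3ar1 stood above Cfp, so the order of this pair depends on the scale. Whether counts rise with exon length in these data was not tested. All 8 genes lie on the minus strand. Cfb shares its span with Gm20547, a gene model on the same strand without a row, so its reads may not be fully its own. In all, 6 of the 8 reached 10 CPM, beside 33.2% of all 20034 genes. This is a description, as the genes were chosen with their levels known.

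The rest of the complement system was uneven, and several partners of C1q were close to absent. Over 8 lists of 82 complement genes, members included, 59 had a row and 19 reached 10 CPM, close to the share of all genes. Their median was 0.480 CPM, against 2.03 CPM for all genes. In the classical pathway, all 10 genes had a row and the C1q chains were the only 3 at 10 CPM. C2, the protease that pairs with C4, followed at 3.05 CPM (2.79 to 3.33). The C1r genes C1ra and C1rb stood at 0.979 and 0.867 CPM, C4b at 0.224 CPM, and C1s1, a C1s gene, had 1 count. These 4 were named after their values were seen, and since C1ra and C1rb, C1s1 and C1s2, and C4a and C4b are near-identical copies, the counts of each are uncertain. In the lectin pathway, 6 of 9 genes had a row and 1 reached 10 CPM, the scavenger receptor collectin Colec12 at 90.9 CPM. The ficolin gene Fcna was at 7.88 CPM, and the MASP protease genes Masp1 and Masp2 at 0.281 and 0.175 CPM. Of the alternative pathway list, 3 of 4 genes had a row and Cfp was the 1 at 10 CPM. Of the terminal pathway, 4 of 7 genes had a row and none reached 10 CPM: C8g was at 0.742 CPM, C7 at 0.624 CPM, C6 had 2 counts and C9 had 1.

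Receptors and binding proteins were better represented. Of 8 receptor genes 7 had a row and 4 reached 10 CPM, beside 33.2% of all 20034 genes. Beside C3ar1 and C5ar1 these were Itgam (40.2 CPM) and Itgb2 (31.5 CPM), the chains of complement receptor 3, which binds fragments of C3. C5ar2, the other receptor of C5a, was at 0.299 CPM and was named after its value was seen. Among proteins reported to bind C1q, 6 of 7 had a row and 4 reached 10 CPM: C1qbp at 475 CPM, the chaperone gene Calr at 438 CPM, the endocytic receptor gene Lrp1 at 137 CPM and Cd93 at 40.3 CPM. Of 16 regulators, 12 had a row and 3 reached 10 CPM, not above the share of all genes. Among them were Cr1l (30.9 CPM), the mouse gene of the membrane regulator Crry, and Cd59a (11.1 CPM), while Cd59b was at 0.480 CPM. Of 21 other genes of the C1q domain family, 11 had a row and 3 reached 10 CPM, again not above the share of all genes. These were Emilin2 (79.4 CPM), C1qtnf12 (27.8 CPM) and Emilin1 (14.4 CPM), with C1qtnf6 at 1.75 CPM.

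Detection of C1q followed depth. Over all cells, C1qc was counted in 69.4% (68.3 to 70.5), C1qb in 63.5% (62.3 to 64.6) and C1qa in 62.0% (60.8 to 63.2). C3ar1 was counted in 62.8% of cells, Cfp in 58.4%, C5ar1 in 29.1%, C3 in 5.82% and Cfb in 1.14%. When the cells were ordered by total counts and cut into 10 bins of 674 to 676 cells, C1qa detection ran between 24.1% in the shallowest bin and 87.7% in the deepest. The range over bins was 23.7 to 88.9% for C1qb and 29.6 to 94.4% for C1qc. It was 15.4 to 96.3% for C3ar1, 2.81 to 64.0% for C5ar1 and 9.32 to 94.4% for Cfp. C3 reached 14.5% and Cfb at most 2.67%. In the shallow bins the chains were found in more cells than C3ar1 and Cfp, while in the deepest bin C3ar1 was found in the most cells, although its level was below that of each chain. Levels moved far less with depth: the range over bins was 247 to 353 CPM for C1qa, 232 to 296 CPM for C1qb, 299 to 421 CPM for C1qc and 118 to 150.3 CPM for C3ar1.

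**Figure D1:**
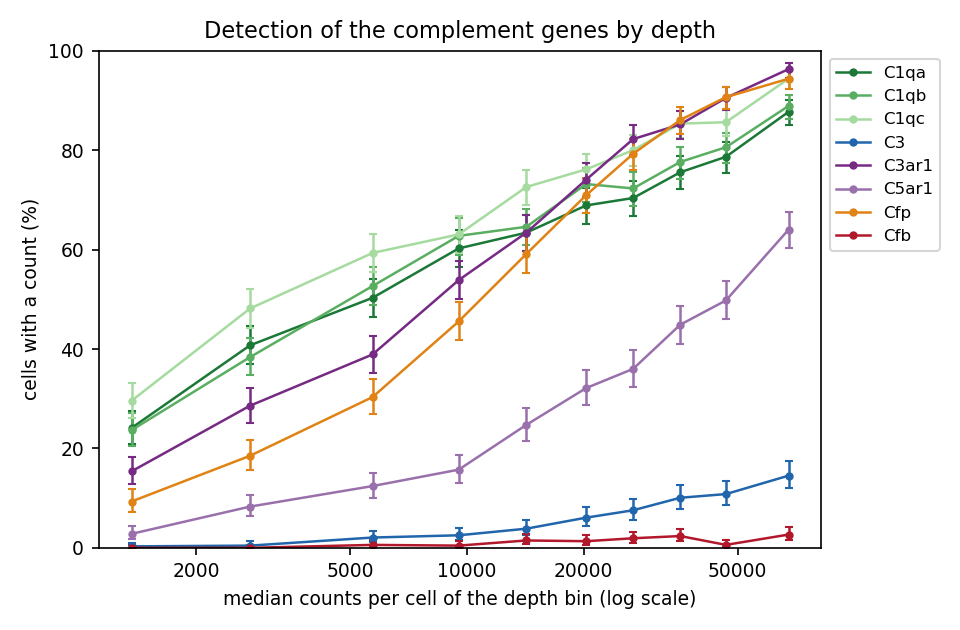
Share of cells with a count of each gene (percent, with 95% Clopper-Pearson intervals) in 10 depth bins, placed at the median counts per cell on a log axis. The curves of C3ar1 and Cfp start below the 3 C1q chains and end at 96.3% and 94.4%, while C3 and Cfb stay at or below 14.5%.

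At equal depth the difference between C1q and the receptors can be read directly. Each cell with at least 1900 counts was thinned at random to 1900, which kept 6085 cells and left out 666. C1qc was then counted in 38.8% of cells (37.6 to 40.0), C1qa in 32.8% (31.6 to 33.9) and C1qb in 31.4% (30.2 to 32.6). C3ar1 was counted in 20.7% (19.7 to 21.7), Cfp in 12.7%, C5ar1 in 4.29%, C3 in 0.460% and Cfb in 0.0657%. The last pair rests on 28 and 4 cells.

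The 3 chains were counted in the same cells. All 3 had a count in 3313 cells, 49.1% (47.9 to 50.3), and 1259 cells, 18.6% (17.7 to 19.6), had none. A further 1142 cells (16.9%) had 1 chain and 1037 (15.4%) had 2. Among cells with exactly 1 chain, C1qc was that chain in 546, C1qb in 314 and C1qa in 282. The share with all 3 was 6.36% in the shallowest bin (median 1362.5 counts per cell) and 80.6% (77.4 to 83.5) in the deepest (median 67623). The share with none was 50.6% in the shallowest and 2.22% (1.25 to 3.64), or 15 of 675 cells, in the deepest. In the sixth bin, at a median of 20322 counts, the cells had on average 21.4 C1q counts and a median of 10, and still 85 of 675 had none.

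**Figure D2:**
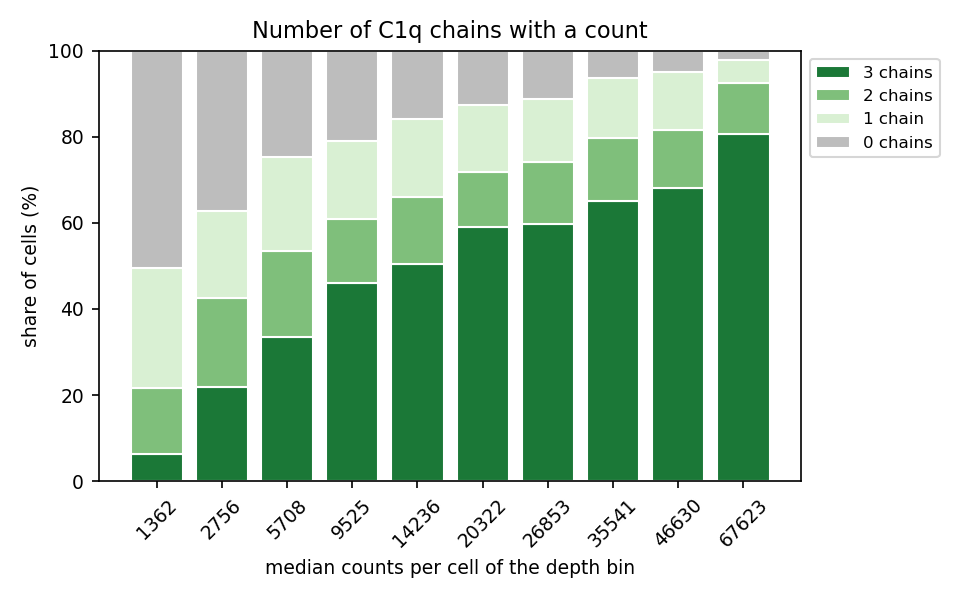
Share of cells (percent) with a count of 3, 2, 1 or 0 C1q chains in the 10 depth bins, labelled with the median counts per cell. Cells with all 3 chains make up 6.36% of the shallowest bin and 80.6% of the deepest, and cells with none 50.6% and 2.22%.

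Thinned to 1900 counts, 14.02% of cells had all 3 chains, 18.8% had 2, 23.4% had 1 and 43.9% had none. At this depth C1qb was counted in 56.2% of cells with C1qa (54.0 to 58.4), against 19.3% of cells without C1qa (18.1 to 20.5). C1qc was counted in 65.6% of cells with C1qa and in 25.7% of cells without it. The same held for the pair of C1qb and C1qc, with C1qc in 66.6% of cells with C1qb and in 26.1% of cells without it. Detection of 1 chain thus went with that of each other chain after depth had been made equal. For the receptors, which were counted in fewer cells, the contrast in percentage points was smaller. C3ar1 was counted in 30.3% of cells with C1qa (28.3 to 32.4), against 16.03% of cells without it (14.9 to 17.2). C5ar1 was counted in 6.87% of cells with C1qa and in 3.03% of cells without it. Cfp was counted in 13.7% of cells with C1qa (12.2 to 15.3) and in 12.1% of cells without it (11.2 to 13.2), intervals that overlap. For the other chains the intervals were apart. Cfp was counted in 14.5% of cells with C1qb and 11.8% without, and in 14.4% with C1qc and 11.5% without. In another random thinning to 1900 counts, C1qa also gave intervals apart, at 15.5% with it and 12.1% without. Thinned to 5000 counts, the intervals overlapped for C1qb (31.9% with, 29.1% without) but not for C1qa (33.1% with, 27.9% without).

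Correlations over the thinned cells, taken on log2(count + 1), were also higher between 2 chains than between a chain and a receptor. Pearson's r was 0.48 for C1qa with C1qc, 0.46 for C1qb with C1qc and 0.43 for C1qa with C1qb over 6085 cells. Thinned to 5000 counts (5207 cells), the same pairs were at 0.67, 0.66 and 0.63. With C3ar1 the chains had r of 0.17 to 0.20 at 1900 counts and 0.32 to 0.34 at 5000, and with C5ar1 0.09 to 0.11 at 1900 and 0.19 to 0.21 at 5000. At 1900 counts their r was 0.04 to 0.05 with Cfp and -0.03 to -0.01 with C3. All cells were taken as 1 sample and sparse counts lower r, so these are descriptions. A value near 0 for a sparse gene does not show that there is no relation, and C3 had a count in 28 of these cells.

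C1q levels varied widely from cell to cell. In the thinned cells the variance of the C1qa count was 2.29 times its mean, that of C1qc 2.17 times and that of C1qb 1.74 times. Among the 1960 genes counted in at least 10% of these cells, this placed them 39th, 41st and 73rd, where the median ratio was 1.07. C3ar1 was at 1.30 and Cfp at 1.11, the latter near that median. The ratio also depends on the mean thinned count, 0.62 for C1qa and 0.14 for Cfp, so it does not compare spread alone. The 3060 cells with at least 20000 counts show the spread without thinning. Their summed C1q level had a median of 498 CPM, with 26.2 CPM at the 10th percentile, 2555 CPM at the 90th and a maximum of 11443 CPM. The 306 of these cells with most C1q counts held 40.9% of all C1q counts and 13.3% of all counts. The values run on without a gap: the bulk lay near 1000 CPM, a shoulder of cells lay near 50 CPM, and 210 cells (6.86%, 5.99 to 7.82) had no C1q count. C3ar1 was at 0 in 13.4% of these cells and Cfp in 14.3%.

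**Figure D3:**
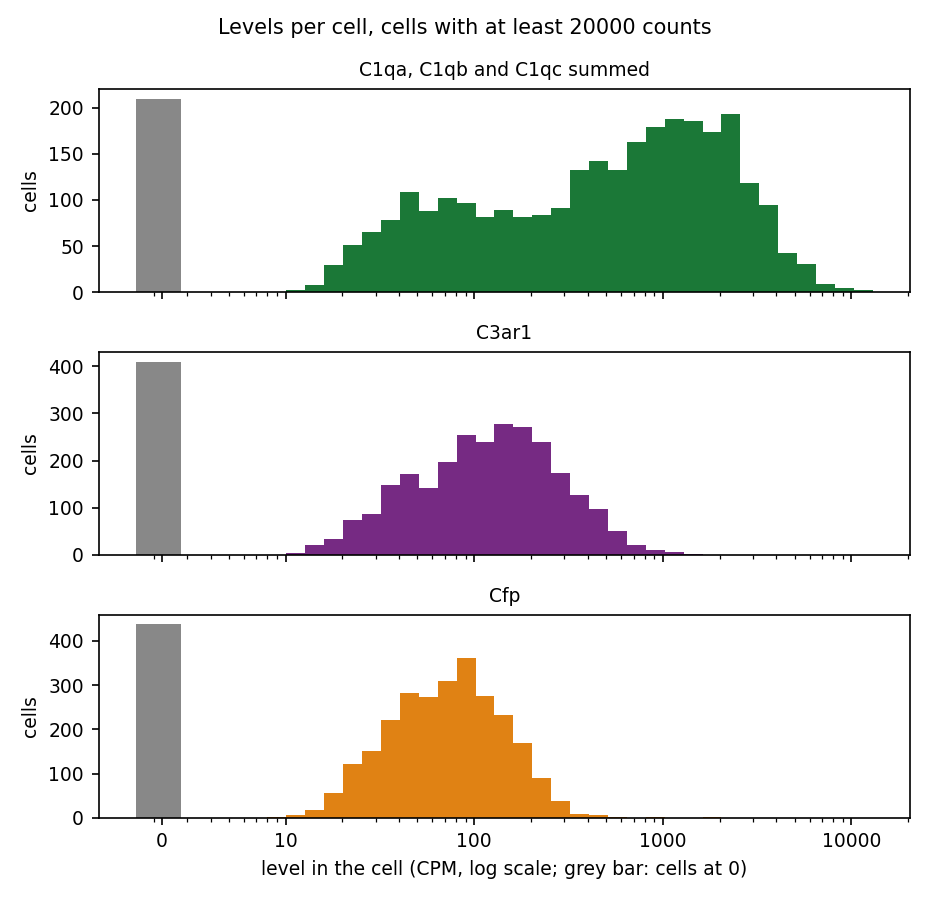
Number of cells by level in the cell (CPM, log axis) for the 3 C1q chains summed, C3ar1 and Cfp, in the 3060 cells with at least 20000 counts; the grey bar counts cells at 0. Summed C1q spreads up to 11443 CPM with 210 cells at 0, wider than C3ar1 or Cfp.

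Free RNA in droplets can give a cell counts of a gene it does not express. No cell type that should lack C1q was found in the matrix to measure this background, so a cell with 1 or 2 C1q counts is not read as expressing it. In the 86 barcodes left out by the filter, which held 243219 counts, the summed C1q level was 94.6 CPM (59.9 to 142), against 964 CPM in the kept cells. Doublets were not called and stayed in.

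The 3 chains kept close to 1 proportion. Of all C1q counts, 33.4% were C1qa, 27.0% were C1qb and 39.6% were C1qc. Over the 10 depth bins the C1qa share lay between 31.3 and 34.6%. Over the 8 clusters of at least 500 cells described below it lay between 29.5% (cluster 6) and 36.5% (cluster 1), further apart than counting error. The proportion did differ with the amount of C1q. Among cells with at least 20000 counts, C1qa made up 34.6% (34.3 to 35.0) of C1q counts in the 737 cells with 61 or more, against 23.9% (21.9 to 26.0) in the 747 cells with 1 to 5. C1qc made up 39.9% (39.5 to 40.2) in the cells with 61 or more and 46.4% (44.0 to 48.7) in those with 1 to 5. The groups between, with 6 to 15, 16 to 30 and 31 to 60 counts, had C1qa shares of 29.2, 29.9 and 31.6%. The cells of the lowest group thus held fewer C1qa counts for each C1qc count. This split by C1q count was chosen after the data had been seen.

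Deep cells without C1q differed from those with all 3 chains in other complement genes. The comparison sets the 2052 cells with all 3 chains against the 210 with none, all with at least 20000 counts, and was added after detection by depth had been seen. The cells with all 3 chains had a median of 40257.5 counts and those with none 29158.5, and the part of this gap in the differences was not tested. C3ar1 was at 176 CPM (173 to 179) with all 3 chains and 45.8 CPM (41.0 to 51.1) with none, 3.84 times as high. C5ar1 was at 30.05 CPM (28.9 to 31.2) with all 3 and 4.57 CPM (3.13 to 6.45) with none, 6.57 times as high. Cfp was at 77.3 CPM with all 3 and 68.4 CPM with none, a ratio of 1.13 (1.03 to 1.24). C3 ran the other way, at 2.42 CPM (2.11 to 2.75) with all 3 and 8.997 CPM (6.91 to 11.5) with none. Cfb did not differ beyond counting error, at 0.642 CPM (60 counts) with all 3 and 0.571 CPM (4 counts) with none. Of the 3 genes at 10 CPM or more that did not define the groups, C3ar1 and C5ar1 were at least 1.5-fold higher, beside 7.27% of all 6656 genes at that level, and none was at least 1.5-fold lower, beside 0.586%.

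For C3ar1, C5ar1 and C3 the cells with 1 and 2 chains fell between these groups. C3ar1 was at 45.8, 59.6, 78.9 and 176 CPM in cells with 0, 1, 2 and 3 chains. C5ar1 was at 4.57, 6.66, 10.01 and 30.05 CPM in the same order, with overlapping intervals for 0 and 1 chain. C3 was at 8.997, 6.01, 3.08 and 2.42 CPM, with overlapping intervals for 0 and 1 chain and for 2 and 3 chains. Cfp was at 68.4, 64.7, 68.9 and 77.3 CPM. Its interval for 3 chains (75.5 to 79.1) lay above those for 0 (62.4 to 74.8), 1 (60.5 to 69.0) and 2 chains (65.0 to 72.9). Cfb was at 0.571, 0.644, 0.931 and 0.642 CPM, with overlapping intervals.

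The factors reported to act on the C1q genes did not all differ with C1q. Of 9 such factors all had a row and 6 reached 10 CPM over all cells, beside 33.2% of all genes. Among them were Spi1 at 222 CPM, Cebpb at 180.5 CPM, Irf8 at 114 CPM, Maf at 99.3 CPM and Rxra at 38.0 CPM, of which Rxra was named after its value was seen. In deep cells with all 3 chains against those with none, 3 of these 6 were at least 1.5-fold higher, beside 7.27% of all genes, and none was lower, beside 0.586%, with a median log2 ratio of 0.41 over the 6, against 0.09 over all genes tested. Maf stood apart, at 127 CPM (124 to 129) with all 3 chains and 16.4 CPM (13.6 to 19.7) with none, 7.71 times as high. It was at 16.4, 27.0, 48.1 and 127 CPM in cells with 0, 1, 2 and 3 chains. Rxra was at 43.8 CPM with all 3 and 21.1 CPM with none. Spi1 was at 224 CPM (221 to 227) with all 3 and 211 CPM (200.5 to 222) with none. Irf8 was at 112 CPM with all 3 and 124 CPM with none, and Cebpb at 173 CPM with all 3 and 209.9 CPM with none.

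Some markers of macrophages and of granulocyte or monocyte precursors differed between the same cells. The mannose receptor gene Mrc1 was at 81.9 CPM with all 3 chains and 8.71 CPM with none. Ms4a7 was at 25.5 CPM with all 3 and 1.43 CPM with none, and the folate receptor gene Folr2 at 15.4 CPM with all 3 and 0.571 CPM (4 counts) with none. Prtn3, the proteinase 3 gene of granule-forming precursors, was at 59.3 CPM with all 3 and 230 CPM (219 to 241) with none. The monocyte marker Ly6c2 was at 15.4 CPM with all 3 and 149 CPM (139.6 to 158) with none. F13a1, the highest of the monocyte markers, is not given for these groups and did not go with Ly6c2 elsewhere. In the thinned cells, summed C1q was at 1556 CPM in cells with F13a1 and 956 CPM in cells without it. Of the 18 macrophage markers, 11 were at least 1.5-fold higher with all 3 chains, beside 7.27% of all genes, and none was lower, beside 0.586%. The part of these markers in the C3ar1, C5ar1 and C3 differences was not tested.

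**Figure D4:**
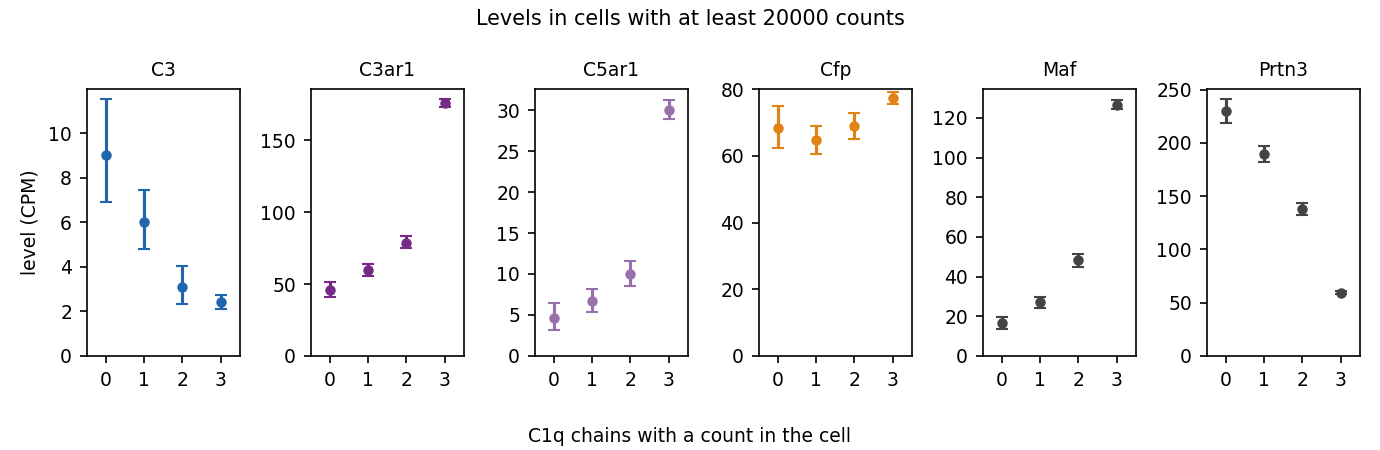
Levels (CPM, with 95% Poisson intervals, each panel with its own axis) of C3, C3ar1, C5ar1, Cfp, Maf and Prtn3 in cells with at least 20000 counts, by the number of C1q chains counted in the cell. C3ar1, C5ar1 and Maf are highest in cells with 3 chains, C3 and Prtn3 in cells with none, and Cfp lies between 64.7 and 77.3 CPM.

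Other genes were ranked by how their counts went with C1q, the 8 genes themselves left out. Likeness was Pearson's r of log2(count + 1) with the summed C1q count over the 6085 thinned cells, among 1960 genes with a median r of -0.005. The highest was Ctsb (0.39), a lysosomal protease gene, followed by Spp1 (osteopontin, 0.35), Pf4 (a chemokine, 0.34), Apoe (apolipoprotein E, 0.34), Lgals1 (galectin, 0.34) and Ifi27l2a (an interferon-inducible gene, 0.34). Fth1 (0.29) and Ftl1 (0.27), the ferritin chains, Ctsd (0.28), another lysosomal protease, and Cd63 (0.26), a lysosomal membrane protein, completed the 10 highest. Lgals1, Fth1 and Ftl1 were counted in 98.1% or more of the thinned cells. The 5 lowest were Ncl (-0.20), Ptma (-0.19), Prtn3 (-0.18), Hmgb2 (-0.16) and Hsp90ab1 (-0.16). Among the listed genes C3ar1 was at 0.24 and Maf at 0.21, while Spi1 was at 0.02, Irf8 at 0.00 and Cebpb at -0.04. Outside the 8 genes, the highest for C3ar1 were Ctsb (0.25), Spp1 (0.24) and Ftl1 (0.19), and for C5ar1 Spp1 (0.13), Ctsb (0.11) and Ctsd (0.11). Of the 10 genes most like C1q, Ctsb and Spp1 headed the lists of both receptors. No gene reached 0.1 with Cfp.

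Clusters of cells were made without the 8 genes and without any gene of the lists used here, and they are called by number, from the largest to the smallest. Genes that vary with C1q stayed in, so these levels are not independent of the clusters. Cluster 5 (839 cells, led by Adamts1, Cd72 and Fcgr4 beside the listed Ms4a7 and Folr2) had the most C1q, 2427 CPM (2405 to 2449). Among the 8 clusters of at least 500 cells, cluster 8 was next at 924 CPM (911 to 937), followed by cluster 7 at 865 CPM (847 to 884) and cluster 3 at 859 CPM (849 to 869.6), whose intervals overlap. Cluster 6 was at 772 CPM, cluster 2 at 741 CPM and the shallow cluster 4, with a median of 1769 counts per cell, at 554 CPM. Cluster 1 (1074 cells, led by Camk1d and Tmtc2) had the least of these 8, 409.9 CPM (401 to 419). Cluster 5 thus held 5.92 times (5.78 to 6.06) the C1q level of cluster 1, and the ratio was 5.61 when all cells were thinned to 1900 counts.

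In cluster 5 every complement gene at 10 CPM or more stood higher than in the other cells. C1qa was at 831 CPM in cluster 5 and 250.4 CPM in the other cells, C1qb at 632 CPM in cluster 5 and 208 CPM in the other cells, and C1qc at 964 CPM in cluster 5 and 300.1 CPM in the other cells. C3ar1 was at 341 CPM (333 to 349) in cluster 5 and 114 CPM (112 to 116) in the other cells, and C5ar1 at 50.9 CPM in cluster 5 and 20.1 CPM in the other cells. Cfp was at 109 CPM in cluster 5 and 69.9 CPM in the other cells, 1.56 times as high (1.49 to 1.63). All 6 were at least 1.5-fold higher, beside 6.93% of all 6656 genes, and their median log2 ratio was 1.59, against -0.14 for all genes. C3 was lower, at 1.06 CPM (21 counts) in cluster 5 and 3.56 CPM in the other cells. Markers moved with this cluster: the summed level of Ms4a7, Folr2, Mrc1 and Mertk was 359 CPM in cluster 5, and that of Prtn3, Ly6c2, F13a1 and Elane was 82.5 CPM. Within the second sum Prtn3 was at 16.1 CPM in cluster 5 and 108 CPM in the other cells and Ly6c2 at 2.88 CPM in cluster 5 and 40.2 CPM in the other cells, while F13a1 was higher, at 63.2 CPM in cluster 5 and 37.5 CPM in the other cells. Of 20 G2 and M phase genes, 19 were at least 1.5-fold lower in cluster 5, beside 14.4% of all genes. The part of these in the result was not tested.

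Cluster 1 showed the opposite for 5 of the 6. C1qa was at 149 CPM in cluster 1 and 347 CPM in the other cells, C1qb at 109.6 CPM in cluster 1 and 282 CPM in the other cells, and C1qc at 151 CPM in cluster 1 and 415 CPM in the other cells. C3ar1 was at 63.4 CPM in cluster 1 and 153 CPM in the other cells, and C5ar1 at 10.5 CPM in cluster 1 and 25.8 CPM in the other cells. These 5 were at least 1.5-fold lower, beside 6.91% of all 6656 genes. Cfp was at 74.6 CPM in cluster 1 and 74.7 CPM in the other cells. C3 was higher, at 7.22 CPM (6.09 to 8.49) in cluster 1 and 2.68 CPM (2.42 to 2.97) in the other cells. The summed level of Ms4a7, Folr2, Mrc1 and Mertk was 31.5 CPM in cluster 1, and that of Prtn3, Ly6c2, F13a1 and Elane 323 CPM. Of the macrophage markers 6 of 18 and of the G2 and M genes 9 of 20 were at least 1.5-fold lower in cluster 1. Its median mitochondrial share was 0.267%, the lowest of the 11 clusters, against 0.568% over all kept cells and 0.840% in cluster 5. The part of these in the result was not tested. Over the 8 clusters C3 lay between 1.04 CPM (cluster 7) and 7.22 CPM, and Cfp between 60.5 CPM (cluster 4) and 109 CPM, a narrower span than that of C3ar1, 63.4 to 341 CPM.

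**Figure D5:**
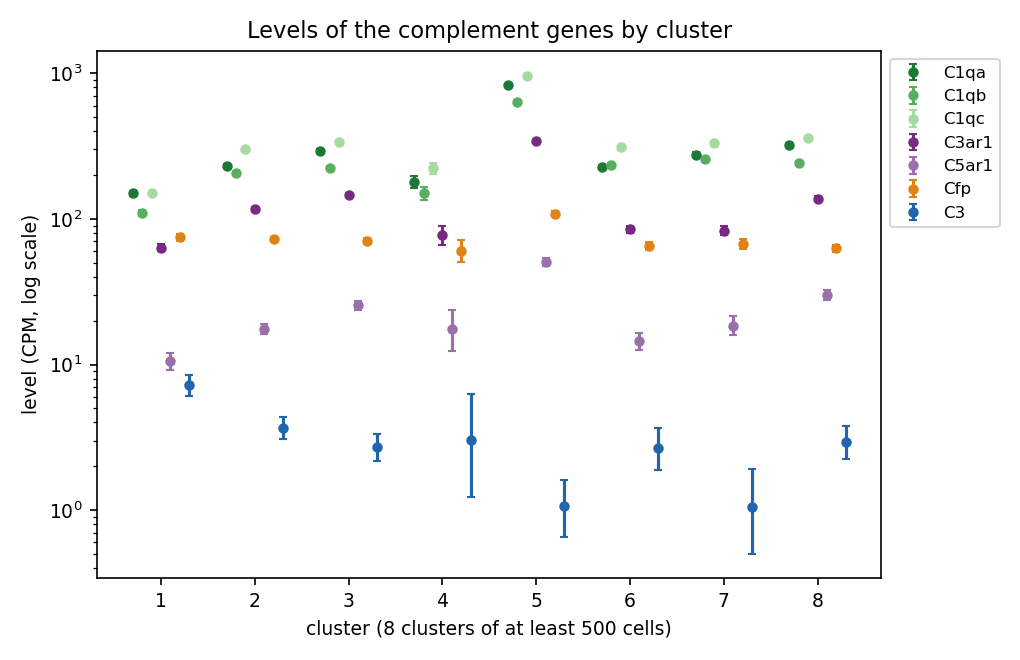
Levels (CPM, log axis, with 95% Poisson intervals) of C1qa, C1qb, C1qc, C3ar1, C5ar1, Cfp and C3 in the 8 clusters of at least 500 cells. In cluster 5 the chains and both receptors are highest, in cluster 1 they are lowest while C3 is highest, at 7.22 CPM.

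The clusters also differed in how many cells had C1q. Thinned to 1900 counts, 43.1% (39.7 to 46.6) of cells of cluster 5 had all 3 chains and 11.6% had none. In cluster 1, 4.43% (3.26 to 5.86) had all 3 and 63.2% had none. Among cells with at least 20000 counts, 4 of 426 in cluster 5 (0.939%) and 71 of 443 in cluster 1 (16.03%) had no C1q count. Cluster 1 held 33.8% of all deep cells without C1q and cluster 5 held 1.90%.

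The small clusters add a value for Cfb. Cluster 9 (45 cells), led by Cxcl10, Acod1, Ifit3, Rsad2 and Ifit1, genes that interferon or inflammatory signals are known to raise, had 9 Cfb counts in 5 of its cells, or 7.92 CPM (3.62 to 15.03), against 0.647 CPM (0.528 to 0.785) in the other cells. Without its highest cell it was at 5.33 CPM. C3ar1 was at 239 CPM (212 to 269) in this cluster, and summed C1q at 1030.0 CPM. Cluster 5 had 41 of the 112 Cfb counts, 2.07 CPM (1.49 to 2.81), of which 8 came from 1 cell, and 1.67 CPM without that cell. Cluster 10 (26 cells) had 8 C1q counts, 66.3 CPM (28.6 to 131), and cluster 11 had 2 cells and no C1q count.

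At equal depth, cells with several G2 and M phase transcripts carried less C1q than cells with none. At 1900 counts per cell, 2133 cells had counts of at least 3 of 20 G2 and M phase genes and 1437 had none. Summed C1q was at 805 CPM (778 to 833) in cells with G2 and M transcripts and 1340.15 CPM (1297 to 1384) in cells without, a ratio of 0.601 (0.573 to 0.630). C3ar1 was at 115 CPM with and 188 CPM without, C5ar1 at 22.0 CPM (17.6 to 27.0) with and 27.8 CPM (21.9 to 34.8) without, and Cfp at 63.9 CPM with and 84.2 CPM without. The 3 chains and C3ar1 were at least 1.5-fold lower, 4 of 6, beside 2.30% of all 6656 genes, and none was higher, beside 18.0%. All 3 chains were counted in 11.3% (10.03 to 12.8) of cells with G2 and M transcripts and in 19.6% (17.5 to 21.7) of cells without. Ms4a7 was at 7.40 CPM with and 49.4 CPM without in the same cells, and its part in the C1q difference was not tested. Other groupings did not all show this difference. In cluster 5 the G2 and M genes were lower (median log2 ratio -1.44) and summed C1q higher, at 2427 CPM against 759 CPM in the other cells. In cluster 2 these genes were higher (median 0.60) and summed C1q lower, at 741 CPM against 1037 CPM in the other cells. In clusters 1, 3, 6 and 7 both the median G2 and M ratio and summed C1q were lower than in the other cells. In cluster 8 all 20 G2 and M genes were at least 1.5-fold higher, beside 24.6% of all genes, while summed C1q was at 924 CPM in cluster 8 and 971 CPM in the other cells and none of the 6 complement genes was 1.5-fold lower, beside 1.11% of all genes. Deep cells with all 3 chains had 2 of the 20 genes at least 1.5-fold higher than those with none, beside 7.27% of all genes. They had 0 lower, beside 0.586%, and these counts are not read as a difference. The median log2 ratio of the 20 genes was 0.34, against 0.09 for all genes.

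Marker genes of the opposite ends of macrophage maturation divided the cells more strongly. At 1900 counts, 711 cells had a count of Ms4a7, Folr2, Mrc1 or Mertk and none of Prtn3, Ly6c2, F13a1 or Elane, and 1230 cells had the reverse. Both marker sets were chosen with earlier results of these data known. Summed C1q was at 2083 CPM (2007 to 2161) in cells with mature markers and 545 CPM (516 to 576) in cells with immature markers, 3.82 times as high (3.58 to 4.09). C3ar1 was at 287 CPM in cells with mature markers and 82.6 CPM in those with immature markers, and C5ar1 at 51.8 CPM with mature and 14.1 CPM with immature markers. Cfp was at 99.2 CPM (83.1 to 117) with mature and 83.4 CPM (72.1 to 96.0) with immature markers, intervals that overlap. C3 had 1 count in the cells with mature markers and 15 in those with immature markers. Of the 6 genes 5 were at least 1.5-fold higher, beside 15.1% of all 6656 genes, and none was lower, beside 5.26%. All 3 chains were counted in 34.2% (30.7 to 37.8) of cells with mature markers and 6.67% (5.34 to 8.21) of cells with immature markers. The 149 cells with both kinds had 2038 CPM of C1q and the 3995 with neither had 897 CPM.

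Taken 1 at a time, the markers did not all follow their set. Summed C1q was at 3421 CPM in the 186 cells with Ms4a7 and 916 CPM in the cells without it, and at 3245 CPM with Folr2 and 949 CPM without. With Mrc1 it was at 1897 CPM and without at 899.98 CPM, and with Mertk at 1865 CPM and without at 973 CPM. It was at 224 CPM (185 to 268) in the 280 cells with Ly6c2 and 1029.6 CPM in the cells without it, and at 446 CPM with Prtn3 and 1089 CPM without. F13a1, placed with the immature markers, went the other way, with 1556 CPM (1466 to 1651) of C1q in the 374 cells that had it and 956 CPM in the cells without. Elane was counted in 9 cells, whose 643 CPM (321 to 1151) had an interval that includes the 993 CPM of the cells without it.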

How the data were processed

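Single-cell RNA counts of induced macrophages were analysed from 1 matrix. It holds raw counts as deposited, whole numbers by gene and barcode, from PISA 0.12, per the file headers. Per the submitters' processing notes, Cell Ranger and mm10 were also involved, in roles left unstated. Not given in the sources used here are the aligner, the counting annotation, how barcodes were called and whether reads or unique molecules were counted. Counted reads would make every interval too narrow.

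Barcodes needed 500 genes or more, and a mitochondrial share of 15% or less. Levels are counts summed over cells per 1000000 counts, with exact Poisson intervals, and per kb of merged exons of GENCODE M21. Shares have exact Clopper-Pearson intervals. Cells were thinned without replacement to 1900 counts. Ratios between groups of cells are called past 1.5-fold, from log2 of CPM + 1, among the 6656 genes at 10 CPM or more. For clusters, 175 listed genes were left out. The 2000 most variable genes, 30 components, 15 neighbours and Leiden at resolution 0.5 were used (scanpy 1.11.5, scikit-learn 1.9.0, leidenalg 0.10.2, Python 3.11.15, numpy 2.4.6, scipy 1.17.1). Thinning, ratios between groups and correlation were tested on simulated data. Clustering, detection shares and intervals were not.

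The genes and lists were chosen with earlier results of these data known. The rule names all 8 genes, the 4 highest genes of each other complement list, the 10 genes most and the 5 least like summed C1q, and the 3 most like each of C3ar1, C5ar1 and Cfp where r is at least 0.1. Results for some genes are not reported here. Alternatives are given in the closing part.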

Additional observations from a re-analysis of the deposited data

Results flagged for a closer look

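The 86 barcodes left out by the filter, which enter no comparison, held counts of 5 of the 8 genes above the limit that a count of 0 allows there (3 counts, or 12.3 CPM). C1qa was at 16.4 CPM (4 counts), C1qb at 32.9 CPM (8 counts) and C1qc at 45.2 CPM (11 counts). C3ar1 was at 20.6 CPM (5 counts) and Cfp at 24.7 CPM (6 counts). These barcodes had a median of 1802 counts.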

How the results depend on the processing

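Of 37 alternative values of the main results, 19 moved by less than their counting error or, for counts of genes, by less than 1.5 times, 18 moved further and none reversed. Of 66 values for single genes, 37 stayed and 29 moved. Summed C1q, 964 CPM, was 1595 CPM with ribosomal, mitochondrial and rRNA-linked genes out of the total and 988 CPM without the 5% of cells with most counts. The share with all 3 chains, 49.1%, was 55.2% under a filter of 1000 genes and a 10% mitochondrial share, 47.2% without the deepest 5% and 38.9% when a chain needed 2 counts. The share with none, 18.6%, was 13.9% under that filter and 35.7% when a chain needed 2 counts. Thinned to 5000 or 1000 counts in place of 1900, all 3 chains were counted in 33.1% or 5.05% and none in 28.9% or 56.4%, as fewer counts per cell lower detection by construction. The ratio of the highest to the lowest cluster, 5.92, was 4.13 at Leiden resolution 0.3, 4.44 at 1.0, 6.56 with the listed genes kept in the clustering and 5.61 in thinned cells. The ratio was 0.558 for cells with G2 and M transcripts and 4.13 for mature over immature markers when thinned to 5000. Of the complement genes, 10 reached 50 CPM, against 19 at 10 CPM. Beyond thinning, the cause was not tested. Thinned cluster levels, chain proportions by C1q count, deep cells by C1q chains and single markers were added after the data had been seen. No paired analysis was possible because each label names 1 library and the barcodes carry no sample. Depth limits C3 and Cfb most: thinned, they rest on 28 and 4 cells.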
